A study of Homo sapiens with 12 samples.

Results

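The splicing regulators that bind exons and introns were followed in NCI-H520, an established line of human lung squamous cell carcinoma, across 12 libraries of bulk RNA. The members were all protein-coding genes with a symbol of SRSF and digits only, 12 genes for SR proteins, or with a symbol that starts HNRNP, 27 genes for heterogeneous nuclear ribonucleoproteins (hnRNPs), together 39 of the 58302 gene rows. The 4 groups held 3 libraries each. Cells transduced with a lentivirus carrying L1-FGGY, a chimeric transcript that joins a LINE-1 element to the gene FGGY, were given DMSO (labelled L1_F_DMSO, called OV-L1-FGGY here) or 10 µM ML355, an inhibitor of the 12-lipoxygenase enzyme (L1_F_ML355). A further group is labelled L1_F_NVR and was given 450 µM NVR, a LINE-1 inhibitor by the labels and a reverse transcriptase inhibitor by the study's text. The fourth group, labelled CTRL_DMSO (OV-CTRL), is the control line in DMSO. Both inhibitors were dissolved in DMSO, and control cells received the same volume of it, 0.2% of the medium. The medium was changed for medium with inhibitor 5 h after seeding. The length of exposure, whether a line was 1 clone and whether replicates were separate cultures are not given in the sources used here, so the p-values measure the spread between these libraries, which may be technical.

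SR proteins carry RNA recognition motifs and a tail rich in arginine and serine, and they bind exonic enhancers and help the spliceosome choose the flanking splice sites. hnRNPs coat nascent transcripts and often act against exon inclusion, and many also take part in mRNA export, stability and translation. The amount of each protein is held in part by its own pre-mRNA, since several SR and hnRNP genes contain ultraconserved "poison" exons or cassettes whose inclusion sends the transcript to nonsense-mediated decay. Gene-level counts add such isoforms to the coding ones.

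Library totals ran from 16242082 to 27004768 counts, and levels are given as CPM after TMM scaling (counts scaled to a common library size, called normalised CPM). The libraries fell into 2 sides. FGGY, the gene inside the introduced transcript, had 4782 to 6196 counts in OV-L1-FGGY and 5080 to 7346 after ML355, but 82 to 103 counts in the NVR-labelled libraries and 78 to 91 in OV-CTRL. The NVR-labelled libraries thus go against the L1-FGGY part of their label, and across all genes their log values correlated at 0.706 to 0.774 with libraries of the other side and at no less than 0.932 with OV-CTRL, as the ML355 libraries did with OV-L1-FGGY. They are therefore set against OV-CTRL first and against OV-L1-FGGY, the baseline of the label, second. Of 8 squamous markers, KRT5, KRT6A, DSG3 and PKP1 had at most 3 counts in every library, and SOX2 was at that level only in OV-L1-FGGY and ML355 and KRT14 only in the other 2 groups, so 5 of the 8 were near 0 in each group. TP63 and TRIM29 complete the list. The sum of all 8 still differed between the sides. It was 175 to 202 normalised CPM in OV-L1-FGGY and 301 to 385 after ML355, but 10.4 to 19.3 in the NVR-labelled libraries and 21.1 to 25.9 in OV-CTRL. Mitochondrially encoded mRNA made up 5.39% to 6.09% of counts in OV-L1-FGGY, 0.637% to 0.828% after ML355, 4.73% to 5.34% in the NVR-labelled libraries and 3.64% to 3.88% in OV-CTRL. Its part in the results below was not tested beyond the refit without those genes, which is given beside the ML355 counts.

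Promoter sequence was printed for a few members whose levels differ in kind between the groups. SRSF3 and SRSF6 were lower in both inhibitor comparisons, SRSF4 and HNRNPL were higher after ML355 and lower in the NVR-labelled libraries, and SRSF12 was near absent on one side. Each run covers the bases from 250 to 10 upstream of the RefSeq transcript start (GRCh38.p14), read 5′ to 3′ on the gene's strand, and holds no exon annotated in GENCODE 44. Capitals mark matches to the motifs searched on both strands, and adjoining matches run together.
SRSF3 promoter (chr6:36594112-36594352, plus strand): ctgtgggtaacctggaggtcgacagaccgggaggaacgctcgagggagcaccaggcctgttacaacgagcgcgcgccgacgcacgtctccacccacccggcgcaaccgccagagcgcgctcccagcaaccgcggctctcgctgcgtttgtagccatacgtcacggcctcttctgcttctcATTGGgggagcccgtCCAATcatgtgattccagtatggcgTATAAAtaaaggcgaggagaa
SRSF6 promoter (chr20:43457646-43457886, plus strand): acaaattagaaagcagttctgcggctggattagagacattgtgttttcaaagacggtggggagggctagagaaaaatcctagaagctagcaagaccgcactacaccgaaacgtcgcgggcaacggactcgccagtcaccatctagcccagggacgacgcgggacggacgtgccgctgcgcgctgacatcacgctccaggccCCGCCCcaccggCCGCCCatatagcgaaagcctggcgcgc
SRSF4 promoter (chr1:29181910-29182150, minus strand): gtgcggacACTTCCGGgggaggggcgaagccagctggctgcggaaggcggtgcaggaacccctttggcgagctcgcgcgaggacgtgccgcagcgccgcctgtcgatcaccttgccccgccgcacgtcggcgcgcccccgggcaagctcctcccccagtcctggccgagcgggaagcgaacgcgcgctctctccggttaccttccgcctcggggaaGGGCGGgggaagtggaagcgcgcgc
HNRNPL promoter (chr19:38852357-38852597, minus strand): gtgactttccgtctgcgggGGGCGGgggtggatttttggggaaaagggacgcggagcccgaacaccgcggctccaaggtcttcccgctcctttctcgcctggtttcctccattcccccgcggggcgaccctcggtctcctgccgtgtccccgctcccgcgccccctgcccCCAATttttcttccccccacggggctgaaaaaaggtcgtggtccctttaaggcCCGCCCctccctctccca
SRSF12 promoter (chr6:89118081-89118321, minus strand): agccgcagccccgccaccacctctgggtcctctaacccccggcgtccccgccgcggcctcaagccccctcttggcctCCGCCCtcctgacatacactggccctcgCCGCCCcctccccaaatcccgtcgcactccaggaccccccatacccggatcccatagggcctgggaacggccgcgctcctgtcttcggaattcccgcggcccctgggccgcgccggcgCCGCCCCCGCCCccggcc
SRSF3 shows a TATA box (TATAAA), 30 bases before the start, with a pair of CCAAT boxes (CCAAT) beginning 70 and 55 bases before it. HNRNPL has a CCAAT box at 80 bases and GC boxes (GGGCGG) at 231 and 27 bases, SRSF6 has GC boxes at 49 and 37 bases, SRSF4 has 1 at 34 bases with an ETS site (CCGGAAGT) at 242 bases, and SRSF12 has 4 GC boxes and none of the other motifs. RefSeq gave 49 promoter windows for 35 of the members, with none matched for SRSF2, HNRNPA1, HNRNPA1L3 and HNRNPCL3. Over the 250 upstream bases, a CCAAT box was found in 49.0% of member windows against 32.0% of all 35116 windows, a GC box in 57.1% against 42.6%, a TATA box in 12.2% against 10.7%, and an E-box (CACGTG) in 14.3% against 6.34%. The palindromic element TCTCGCGAG stood in 6.12% of member windows and 0.604% of all, the NRF1 site GCGCATGCG in 6.12% and 1.64%, and the ETS site in 6.12% and 3.42%. No member window held an E2F site (TTTCGCGC or TTTGGCGC) or a cyclic AMP response element (TGACGTCA), which 0.968% and 1.65% of all windows held. These matches describe the sequence and carry no test, since several windows can belong to 1 gene.

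Of the 39 members, 34 passed the filter on low counts, all 12 SR protein genes and 22 of the hnRNP genes. The 5 that did not were HNRNPCL1, with 1 to 9 counts per library, HNRNPCL2 with 0 to 1, HNRNPCL3 and HNRNPCL4 with 0 in every library, and the readthrough gene HNRNPUL2-BSCL2 with 0 to 11. A count of 0 allows up to 3 counts in a library, for counting error only. Exons of 18 members overlap those of another counted gene. The overlap covers 100% of HNRNPA1L2 and 100% of HNRNPUL2-BSCL2 (with HNRNPUL2 and BSCL2). It covers 54.8% of HNRNPA3 (with NFE2L2 and MIR4444-1), 46.7% of SRSF9 (GATC and NRAV) and 44.3% of HNRNPUL2 (HNRNPUL2-BSCL2). It also covers 35.1% of SRSF1, 27.7% of SRSF2 (MFSD11 and MIR636) and 19.0% of HNRNPU (COX20). Whether the counting used strand is not given in the sources used here, so the values of these genes are uncertain to that extent. HNRNPUL2 and HNRNPUL2-BSCL2 lie on the same strand, so counting by strand would not separate their shared exons. The low counts of HNRNPUL2-BSCL2 thus do not show that it was not expressed.

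Per kilobase of the MANE Select transcript, the highest mean levels over all libraries belonged to HNRNPA1, HNRNPA2B1 and HNRNPC, core proteins of the hnRNP particle, and among the SR proteins to SRSF5, SRSF9 and SRSF2. The order was not the same in every group. SRSF9 stood at 34.9 normalised CPM per kb in OV-L1-FGGY and 37.4 after ML355, under SRSF2 (132 and 66.1) and SRSF3 (122 and 67.0), but at 106 in the NVR-labelled libraries and 129.97 in OV-CTRL, above both. HNRNPK stood above HNRNPC in OV-L1-FGGY (206 against 146) and after ML355 (212 against 205), and below it in the other groups. HNRNPA1 stood at 247 normalised CPM per kb in OV-L1-FGGY, 315 after ML355, 328 in the NVR-labelled libraries and 323 in OV-CTRL. SRSF5 stood at 109, 147, 185 and 138 normalised CPM per kb in the same order of groups. HNRNPA1 was measured at 913, 879 and 981 normalised CPM in OV-L1-FGGY, 1234, 955 and 1352 after ML355, 1277, 1213 and 1198 in the NVR-labelled libraries and 1282, 1174 and 1173 in OV-CTRL. The ML355 libraries overlapped every other group for this gene, and neither inhibitor comparison passed the test. With DESeq2 the ML355 comparison did pass. Its retrocopy HNRNPA1L2 did not exceed 6.91 normalised CPM in any library, and reads of such near-identical copies may be split between them.

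Summed over the class, SR protein genes took 0.246% ± 0.0101 (SD, n = 3) of all counts in OV-L1-FGGY, 0.163% ± 0.00918 after ML355, 0.160% ± 0.00211 in OV-CTRL and 0.0997% ± 0.0126 in the NVR-labelled libraries. ML355 thus lay below OV-L1-FGGY and the NVR-labelled libraries below OV-CTRL, both without overlap, while ML355 and OV-CTRL overlapped. The hnRNP genes took 0.643% ± 0.0197, 0.625% ± 0.0374, 0.857% ± 0.0224 and 0.515% ± 0.0687 in the same order of OV-L1-FGGY, ML355, OV-CTRL and NVR. In percent of counts, OV-L1-FGGY and ML355 overlapped, OV-CTRL was highest, and the NVR-labelled libraries were lowest. After TMM scaling the hnRNP sum was 5946 ± 194 normalised CPM in OV-L1-FGGY and 6331 ± 584 after ML355, so that the order of these 2 groups turns with the scaling. The NVR-labelled libraries, at 5614 ± 233, then overlapped both of these groups, and OV-CTRL stayed highest at 8395 ± 167. In bulk RNA, fewer cells of a type and less RNA per cell cannot be told apart.

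**Figure D1:**
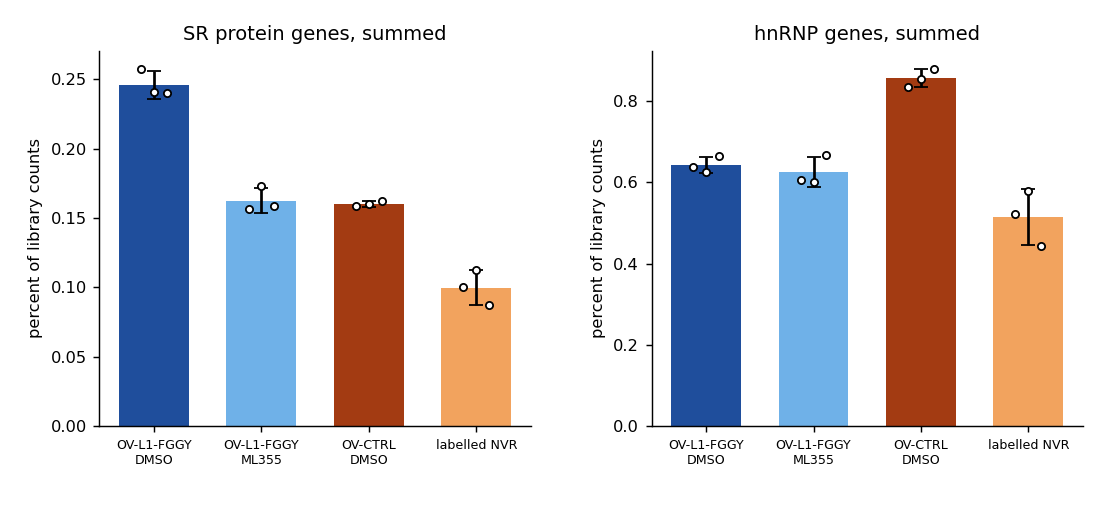
Summed counts of the 12 SR protein genes (left) and the 27 hnRNP genes (right) as percent of all counts in a library. Bars are means of 3 libraries, error bars 1 SD, and points single libraries. The SR sum falls from 0.246% to 0.163% between OV-L1-FGGY and ML355 and from 0.160% to 0.0997% between OV-CTRL and the NVR-labelled libraries, while the hnRNP sum overlaps between OV-L1-FGGY (0.643%) and ML355 (0.625%) and is lower in the NVR-labelled libraries (0.515%) than in OV-CTRL (0.857%).

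After ML355, 5 SR protein genes fell to between 49.95% and 60.04% of their OV-L1-FGGY level and 2 rose, while among hnRNPs only HNRNPM moved more than 2-fold. In all, 12 of 34 members were called at an adjusted p under 0.01 (edgeR, Benjamini-Hochberg over 17849 genes), 5 higher and 7 lower, where 44.8% of all genes were called, 21.3% higher and 23.5% lower. The SR protein genes gave 7 of 12 (2 higher, 5 lower) with a median log2 fold change of -0.56. The hnRNP genes gave 5 of 22 (3 higher, 2 lower) with a median of 0.00, where all genes had a median of 0.00. The SR median takes in SRSF12, for which no fold can be given in these libraries, and it would be less negative without that gene. Of the 17849 genes tested, 405 had no count in any of these 6 libraries, and 174 had none in the 6 of the other side. The members as a whole were thus called no more often than other genes, and only 2 of them, against 25.7% of all genes, were called with a change of at least 2-fold. The fit without mitochondrially encoded genes called 11 members and 7990 genes in all.

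SRSF2, which recognises both C-rich and G-rich exonic motifs, was at 267, 250.4 and 232 normalised CPM in OV-L1-FGGY and 113, 137 and 124 after ML355, a log2 fold change of -1.001 ± 0.11 (SE, adjusted p = 1.80e-06). SRSF3, the smallest of the classical SR proteins and an adaptor of mRNA export, went from 574, 493 and 481 to 327, 228 and 295 normalised CPM (-0.87 ± 0.13, adjusted p = 3.05e-05). SRSF6, an enhancer-binding factor also studied in keratinocytes, went from 255, 233 and 238 to 108, 149 and 116 (-0.96 ± 0.12, adjusted p = 4.14e-06). In each of these 3 genes all ML355 libraries lay under all DMSO libraries. SRSF10, which acts as a splicing repressor when dephosphorylated, was at 289.6, 260.5 and 265 and then 142, 156 and 135 normalised CPM and fell by 0.91 on the log2 scale (SE 0.12, adjusted p = 1.28e-05). SRSF7, a zinc-knuckle SR protein active in export and 3′ end choice, was chosen for its values and went from 201, 179 and 187 to 102, 124 and 114 (-0.74 ± 0.10, adjusted p = 1.87e-05). Both genes were without overlap between the groups.

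The SR protein genes that rose were SRSF4, the long-tailed relative of SRSF6, and SRSF5. SRSF4, also chosen for its values, was at 99.3, 93.3 and 106 normalised CPM in OV-L1-FGGY and 187, 171 and 188 after ML355 (0.87 ± 0.10, adjusted p = 2.81e-06). SRSF5 was at 161, 167 and 159 and 193, 252 and 213 (0.43 ± 0.11, adjusted p = 0.00228). Neither gene overlapped between the groups, but the call of SRSF5 was lost without OV-L1-FGGY replicate 1 (adjusted p = 0.0133), without OV-L1-FGGY replicate 3 (0.0146) and without ML355 replicate 2 (0.0139), and with library size alone as the scaling (0.0505). The remaining SR protein genes did not pass the test. SRSF1, the founding member that acts in splicing, export and translation, was at 215, 201 and 205 and 179, 167 and 171 normalised CPM (-0.27 ± 0.09, adjusted p = 0.0188), and its ML355 libraries all lay lower. It was called with DESeq2, with library size alone and with at least 10 counts required in every library. SRSF8 had 37.4, 43.9 and 49.9 after ML355 against 61.5, 54.3 and 55.2 (-0.38 ± 0.13), and SRSF11 189, 195 and 188 against 243, 231 and 245 (-0.33 ± 0.14), both without overlap. SRSF8 was called without ML355 replicate 3, and SRSF11 when only the groups compared were fitted. SRSF9 had 39.9, 39.0 and 50.2 against 34.9, 45.4 and 40.2 (0.10 ± 0.14), which overlapped. SRSF12, a divergent member that counteracts other SR proteins, had 0, 3 and 0 counts in OV-L1-FGGY and 0 in each ML355 library, where no fold can be given.

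**Figure D2:**
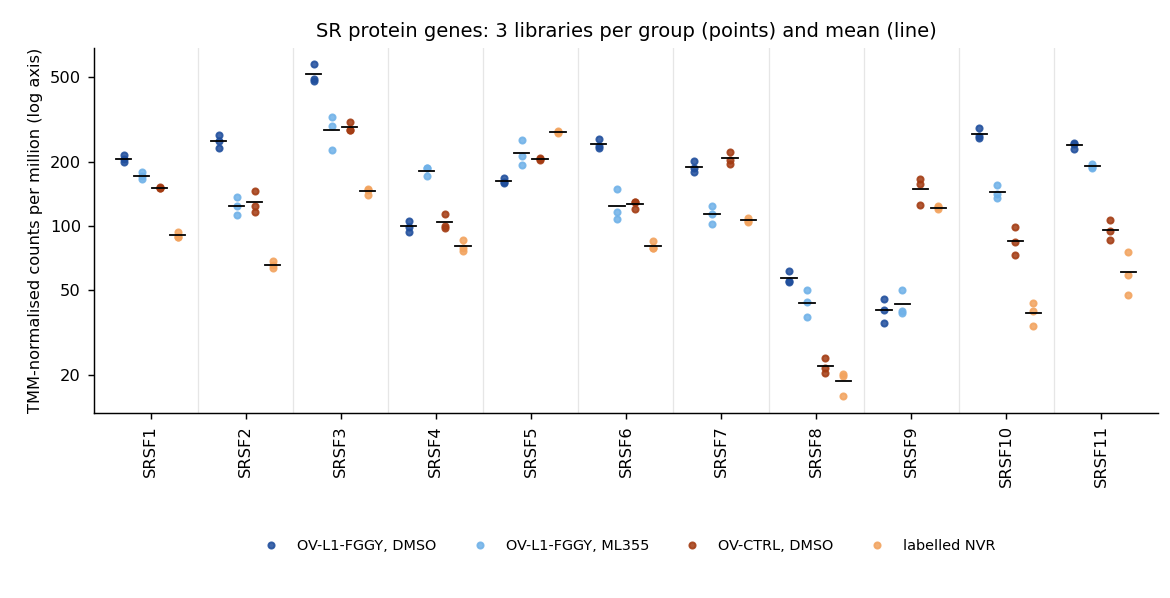
Levels of 11 SR protein genes in each library as TMM-normalised CPM on a log axis, with SRSF12 left out because it has counts of 0. Points are libraries, coloured by group, and lines are means of 3. The light blue ML355 points lie under the dark blue DMSO points for SRSF2, SRSF3, SRSF6, SRSF7 and SRSF10 and above them for SRSF4 and SRSF5, and the orange points of the NVR-labelled libraries lie under the brown OV-CTRL points for the same 5 genes.

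HNRNPM, a GU-rich element binder that regulates cassette exons in epithelial and mesenchymal cells, showed the largest change of any member after ML355 (ENSG00000099783, chr19:8444767-8489114, plus strand, hg38). It stood at 323, 309 and 309 normalised CPM in OV-L1-FGGY and 66.7, 73.7 and 77.0 after ML355, a log2 fold change of -2.11 ± 0.12 (adjusted p = 8.25e-10). The ML355 libraries were also lower than all 6 libraries of the other side, where OV-CTRL had 392, 353 and 335 and the NVR-labelled libraries 247, 209 and 262 normalised CPM. HNRNPUL1, a relative of HNRNPU linked to DNA end resection, was at 207, 208 and 262 and 177, 160.2 and 173 (-0.41 ± 0.12, adjusted p = 0.00950). That call was lost without any single one of the 6 libraries (adjusted p = 0.0108 to 0.0682) and also without the mitochondrially encoded genes (0.0128), the highest of these values without OV-L1-FGGY replicate 3.

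The hnRNP genes that rose were HNRNPDL, HNRNPL and HNRNPC. HNRNPDL, a paralogue of the AU-rich element binder HNRNPD, was chosen for its values and went from 208, 197 and 204 to 403, 333 and 473 normalised CPM (0.99 ± 0.12, adjusted p = 4.59e-06). HNRNPL, a binder of CA repeats, went from 148, 139 and 149.7 to 255, 239 and 278 (0.82 ± 0.12, adjusted p = 2.04e-05). HNRNPC, which binds uridine tracts and keeps Alu exons out of mRNA, went from 469, 449 and 469 to 699.8, 576 and 674 (0.49 ± 0.11, adjusted p = 0.00160, and 0.0109 without OV-L1-FGGY replicate 2). No DMSO library reached the lowest ML355 library in these 3 genes. The other 17 tested hnRNP genes were not called, with log2 fold changes from -0.70 for HNRNPA1L2 to 0.35 for HNRNPA1. HNRNPA1 and HNRNPD were called with DESeq2, HNRNPA1 and HNRNPUL2 without ML355 replicate 2, and HNRNPAB without ML355 replicate 3. HNRNPA2B1 had 805, 788 and 823 and 676, 706 and 780.3 normalised CPM (-0.16 ± 0.11), with all ML355 values under the DMSO ones, and HNRNPK differed by 0.04.

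Several of the hnRNP genes that were not called here differed more than 2-fold in one of the other comparisons. HNRNPR had 264, 250.3 and 282 normalised CPM against 249, 241 and 263 in OV-L1-FGGY, and HNRNPU 428, 373 and 464 against 499, 474 and 526. HNRNPF had 289, 277 and 359 against 332, 297 and 325, and HNRNPD 149.8, 140.2 and 173 against 125, 136 and 128. HNRNPR and HNRNPF overlapped between the groups, while HNRNPU was lower and HNRNPD higher in all ML355 libraries. HNRNPA3 had 132, 144 and 167 after ML355, HNRNPAB 95.4, 91.8 and 123 and HNRNPA0 147, 149 and 206, all overlapping OV-L1-FGGY. HNRNPUL2 had 16.1, 22.1 and 15.1, HNRNPLL 67.9, 71.1 and 83.8 and HNRNPH2 61.4, 71.3 and 67.3. HNRNPA1L2 had 1.72, 2.68 and 1.52 normalised CPM. Their log2 fold changes ran from -0.70 for HNRNPA1L2 and -0.29 for HNRNPH2 to 0.25 for HNRNPD.

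**Figure D3:**
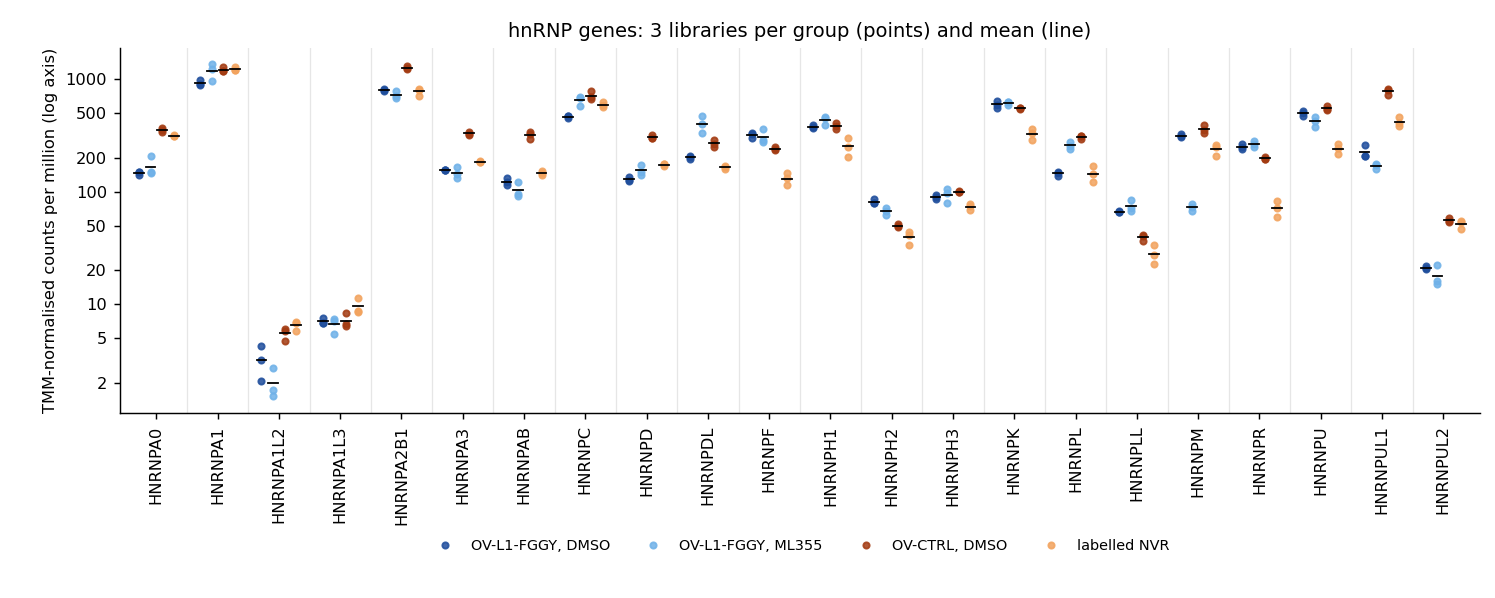
Levels of the 22 tested hnRNP genes in each library as TMM-normalised CPM on a log axis. Points are libraries, coloured by group, and lines are means of 3. HNRNPM is lowest after ML355 (66.7 to 77.0), and HNRNPR, HNRNPU, HNRNPF and HNRNPK are lowest in the NVR-labelled libraries.

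In NVR-labelled libraries against OV-CTRL, most of both classes stood lower. There were 24 of 34 members called, 1 higher and 23 lower, where 29.8% of all genes were called, 14.5% higher and 15.3% lower. The SR protein genes gave 9 of 12 (1 higher, 8 lower) with a median log2 fold change of -0.70, and the hnRNP genes 15 of 22, all lower, with a median of -0.66, where all genes had a median of 0.00. A change of at least 2-fold was called for 5 members and for 13.1% of all genes, so the members' changes were frequent but mostly under 2-fold. The genes tested include 174 with no count in these 6 libraries, and the shares of calls were not matched for count level. With library size alone as the scaling, which moved the median of all genes to -0.15, 24 members were called and all were lower, beside 5033 genes called in all. By their labels these groups are different lines, and whether the NVR-labelled libraries came from OV-CTRL cells was not tested beyond the FGGY counts and correlations above.

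The 5 SR protein genes that fell after ML355 were also called lower here. SRSF10 was at 73.4, 83.9 and 98.8 normalised CPM in OV-CTRL and 39.8, 43.6 and 34.1 in the NVR-labelled libraries (-1.12 ± 0.13, adjusted p = 5.02e-06). SRSF3 was at 309, 283 and 282 and 148, 149 and 140.5 (-0.998 ± 0.13, adjusted p = 1.92e-05). SRSF2 was at 146, 124 and 117 and 65.5, 63.6 and 68.4 (-0.97 ± 0.11, adjusted p = 7.25e-06). All 3 were without overlap and stood at 45.9% to 51.0% of the OV-CTRL level. SRSF7 went from 223, 204 and 196 to 109.6, 104 and 106 (-0.96 ± 0.10, adjusted p = 3.26e-06), and SRSF6 from 130.1, 121 and 129 to 78.8, 85.2 and 78.8 (-0.65 ± 0.12, adjusted p = 0.000404).

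SRSF1 was lower here as well, at 88.7, 93.6 and 88.7 normalised CPM against 151, 150.2 and 152 (-0.74 ± 0.09, adjusted p = 1.07e-05), as was SRSF11, an SR-like protein of the branch site region, at 59.1, 75.4 and 47.5 against 85.6, 95.2 and 106 (-0.66 ± 0.14, adjusted p = 0.00137, and 0.0157 when only these 2 groups were fitted). SRSF4 was lower by less (-0.37 ± 0.10, adjusted p = 0.00774), and its call was lost without any 1 of 5 of the 6 libraries (adjusted p = 0.0126 to 0.0396), the exception being NVR replicate 2. SRSF5 alone was higher, at 276, 281 and 272 normalised CPM against 205, 208 and 204 (0.42 ± 0.11, adjusted p = 0.00409). Its libraries did not overlap, but the adjusted p was 0.0179 without NVR replicate 1 and 0.0122, 0.0200 and 0.0192 without OV-CTRL replicates 1, 2 and 3, and 0.104 with library size alone. SRSF12 had 32, 33 and 22 counts against 59, 74 and 63 in OV-CTRL, a log2 fold change of -0.95 ± 0.37 that did not pass the test (adjusted p = 0.0516). SRSF8 had 19.8, 20.3 and 15.9 normalised CPM against 20.5, 24.1 and 21.6 (-0.24 ± 0.13) and SRSF9 123, 119.6 and 124 against 166, 157 and 126 (-0.29 ± 0.13), neither called.

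Among hnRNPs the largest change was in HNRNPR, a close relative of SYNCRIP that binds mRNA for transport and splicing. It was at 193, 196 and 205 normalised CPM in OV-CTRL and 71.3, 82.9 and 59.97 in the NVR-labelled libraries (-1.47 ± 0.12, adjusted p = 1.50e-07). HNRNPU, a nuclear matrix protein that binds chromatin-associated RNA, was at 532, 543 and 579 and 242, 264 and 217 (-1.19 ± 0.12, adjusted p = 1.19e-06). HNRNPAB, an A/B-type protein known from mRNA editing complexes, was at 340.2, 323 and 292 and 147, 153 and 139 (-1.12 ± 0.12, adjusted p = 3.07e-06). These 3 genes stood at 36.0% to 46.0% of OV-CTRL, without overlap. HNRNPL, the CA-repeat binder that rose after ML355, was at 294, 311 and 312 in OV-CTRL and 143, 168 and 122 (-1.08 ± 0.12, adjusted p = 3.57e-06), and HNRNPDL at 289, 264 and 251 and 165, 169.6 and 158 (-0.71 ± 0.12, adjusted p = 0.000250).

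HNRNPUL1 fell by 0.90 on the log2 scale, from 725, 799 and 814 to 408, 464 and 383 normalised CPM. HNRNPF, a binder of G tracts, had 235, 237 and 251 and 132, 146 and 114 (-0.88 ± 0.12). HNRNPA3 had 341, 326 and 321 and 184, 182 and 186 (-0.84 ± 0.10), and the AU-rich element binder HNRNPD, also called AUF1, 322, 298 and 297 and 175, 169.9 and 176 (-0.82 ± 0.10). All NVR-labelled libraries lay under all OV-CTRL libraries in these 4 genes. HNRNPA2B1, a core protein of the hnRNP particle, had 1317, 1235 and 1253 and 809, 819 and 708 (-0.70 ± 0.11), while HNRNPK, HNRNPH1, HNRNPM, HNRNPLL and HNRNPH3 were lower by 0.76, 0.61, 0.59, 0.49 and 0.45 on the log2 scale. The calls of HNRNPLL and HNRNPH3 did not hold in most fits that left out a library. HNRNPLL was lost without NVR replicate 1 or 3 or OV-CTRL replicate 2 or 3 (adjusted p = 0.0264 to 0.0386). HNRNPH3 was lost without any single library but NVR replicate 2 (0.0107 to 0.0189). The HNRNPLL call was also lost in 4 fits that kept all libraries of the comparison (0.01003 to 0.0258). Not called were HNRNPA0, HNRNPA1, HNRNPA1L2, HNRNPA1L3, HNRNPC, HNRNPH2 and HNRNPUL2, with log2 fold changes from -0.34 for HNRNPH2 to 0.43 for HNRNPA1L3. HNRNPC had 781, 700.3 and 662 normalised CPM in OV-CTRL and 592, 562 and 627 in the NVR-labelled libraries (-0.27 ± 0.11).

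**Figure D4:**
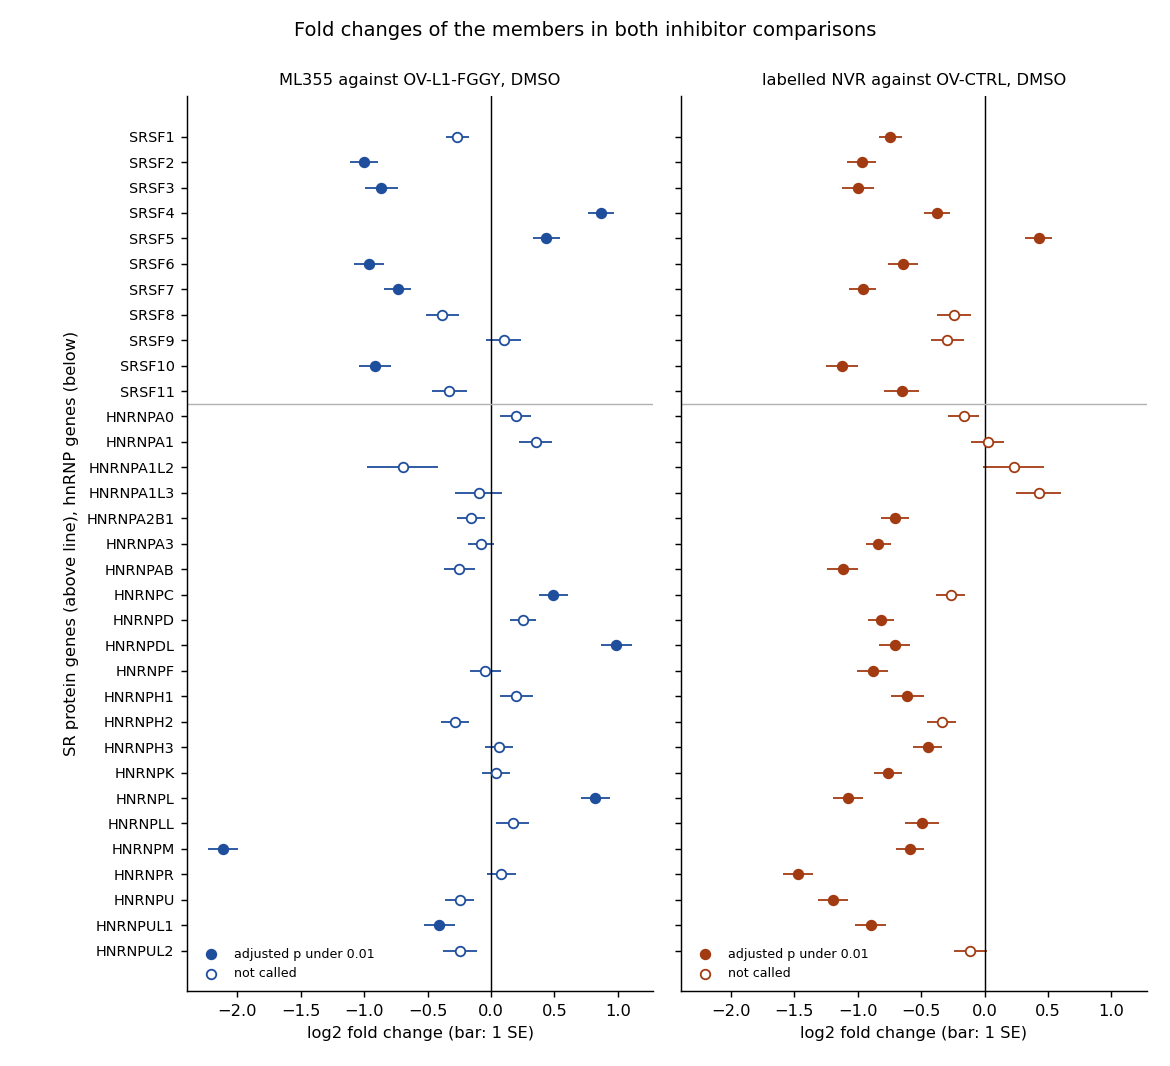
Log2 fold changes of 33 tested members, with 1 SE as bars, for ML355 against OV-L1-FGGY (left) and NVR-labelled libraries against OV-CTRL (right), with SRSF12 left out for its counts of 0. Filled points passed an adjusted p under 0.01. The SR protein genes called in both panels lie on the same side of 0 except SRSF4, while most hnRNP genes lie near 0 on the left and below 0 on the right, with HNRNPM at -2.11 on the left.

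The 2 inhibitor comparisons share no library, and the difference between their effects was tested for each gene in the same fit. It was called for 16 of 34 members, 15 with the more positive effect after ML355 and 1 with the more negative, where 34.1% of all genes were called, 17.3% positive and 16.8% negative. Of the SR protein genes 2 of 12 were called and of the hnRNP genes 14 of 22. The difference was -0.03 ± 0.16 for SRSF2, 0.13 ± 0.18 for SRSF3, 0.21 ± 0.18 for SRSF10, 0.23 ± 0.15 for SRSF7 and -0.31 ± 0.16 for SRSF6 on the log2 scale, none of which passed the test, which does not show that the effects were equal. For SRSF5 it was 0.01 ± 0.15. The exceptions among SR proteins were SRSF4, at 1.24 ± 0.14 (adjusted p = 4.47e-06), and SRSF1, at 0.48 ± 0.13 (adjusted p = 0.00575). The SRSF1 call was lost in 9 of 12 fits that left out a library (adjusted p = 0.0121 to 0.0261).

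Of the hnRNP genes, HNRNPL (1.90 ± 0.17, adjusted p = 2.53e-07), HNRNPDL (1.70 ± 0.17) and HNRNPR (1.55 ± 0.16) had the largest positive differences, and HNRNPD followed with 1.07 ± 0.14. HNRNPM alone was called with a negative difference, -1.52 ± 0.16 (adjusted p = 1.42e-06), its fold changes being -2.11 after ML355 and -0.59 in the NVR-labelled libraries. HNRNPL and HNRNPDL were called in opposite directions in the 2 comparisons. SRSF4 was too, but its call in the NVR-labelled libraries was also lost in 5 fits that kept all libraries of the comparison (adjusted p = 0.0106 to 0.0215), those with the replicate block (0.0143), RLE scaling, no filter, no mitochondrially encoded genes and only these groups. The test sets 2 inhibitors at different doses against different DMSO groups, so the inhibitor and the cells cannot be told apart in these differences.

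Between the DMSO groups, OV-L1-FGGY against OV-CTRL, more SR protein genes were called higher than lower, and more hnRNP genes lower than higher. There were 23 of 34 members called, 10 higher and 13 lower, or 67.6%, which is close to the 68.7% called over all genes (32.5% higher and 36.2% lower). Calls of at least 2-fold came to 12 members and to 51.1% of all genes. By class, SR protein genes gave 7 higher and 3 lower of 12 with a median log2 fold change of 0.64. The hnRNP genes gave 3 higher and 10 lower of 22 with a median of -0.39, where the median of all genes was -0.11. Of the 3 lower SR protein genes, SRSF12 passed the filter on low counts only through the OV-CTRL and NVR-labelled libraries. Its call was thus set in part by the filter, and it also enters the SR median. These groups differ over most of the genes tested.

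SRSF10 was at 289.6, 260.5 and 265 normalised CPM in OV-L1-FGGY against 73.4, 83.9 and 98.8 in OV-CTRL (1.67 ± 0.13, adjusted p = 5.06e-09). SRSF8, an expressed retrocopy of SRSF2 that may share reads with it, had 61.5, 54.3 and 55.2 against 20.5, 24.1 and 21.6 (1.37 ± 0.13, adjusted p = 9.27e-08), and SRSF11 243, 231 and 245 against 85.6, 95.2 and 106 (1.33 ± 0.14, adjusted p = 2.57e-07). These 3 were higher in all OV-L1-FGGY libraries. SRSF2, SRSF6, SRSF3 and SRSF1 were higher by 0.95, 0.93, 0.83 and 0.45 on the log2 scale. SRSF9, one of the shortest SR proteins, ran the other way, at 34.9, 45.4 and 40.2 against 166, 157 and 126 normalised CPM (-1.90 ± 0.14, adjusted p = 2.77e-09). SRSF12 had 0, 3 and 0 counts in OV-L1-FGGY against 59, 74 and 63 in OV-CTRL, at least 16.2-fold higher in OV-CTRL when OV-L1-FGGY is set at a floor of 3 counts per library. SRSF5 was lower by 0.34 (adjusted p = 0.00761, and 0.0167 to 0.0330 without any 1 of the 6 libraries), and SRSF4 and SRSF7 were not called.

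On the hnRNP side, HNRNPUL1 had the largest difference, at 207, 208 and 262 normalised CPM in OV-L1-FGGY against 725, 799 and 814 in OV-CTRL (-1.79 ± 0.13, adjusted p = 1.81e-09). HNRNPUL2, of the same family, had 20.8, 20.7 and 21.7 against 58.3, 55.2 and 53.4 (-1.40 ± 0.13), and HNRNPA0, a substrate of stress kinases that stabilises mRNA, 148, 149.7 and 140.2 against 368, 355 and 336 (-1.27 ± 0.12). HNRNPAB had 114, 123 and 131 against 340.2, 323 and 292 (-1.37 ± 0.12). The groups were far apart in all 4. HNRNPD (-1.24 ± 0.10), HNRNPA3 (-1.08 ± 0.10) and HNRNPL (-1.07 ± 0.12) were also more than 2-fold lower, with 125, 136 and 128, 156, 156 and 155 and 148, 139 and 149.7 normalised CPM in OV-L1-FGGY. HNRNPA2B1, HNRNPC and HNRNPDL were lower by 0.66, 0.63 and 0.40, the last called without OV-CTRL replicate 3 but not without any other library (adjusted p = 0.0185 to 0.0336). Higher in OV-L1-FGGY were HNRNPLL, a regulator of CD45 splicing in lymphocytes, at 66.7, 65.6 and 65.6 against 36.7, 40.2 and 40.8 (0.75 ± 0.13), HNRNPH2, at 85.4, 79.6 and 78.8 against 51.3, 48.8 and 49.8 (0.70 ± 0.11), and HNRNPF, at 332, 297 and 325 against 235, 237 and 251 (0.40 ± 0.12, adjusted p = 0.00694). The HNRNPF call was lost without OV-L1-FGGY replicate 1 or 3 or any OV-CTRL library (adjusted p = 0.0135 to 0.0284).

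Against the baseline of their own label, OV-L1-FGGY, the NVR-labelled libraries gave 26 of 34 members called, 10 higher and 16 lower, where 73.6% of all genes were called, 38.2% higher and 35.4% lower. Calls of at least 2-fold came to 17 members and to 57.6% of all genes. This comparison shares the OV-L1-FGGY libraries with ML355 and the OV-L1-FGGY to OV-CTRL comparison, and the NVR libraries with the one above. With library size alone as the scaling, the split was 6 higher and 19 lower, beside 13008 genes called in all, and the median of all genes moved from 0.08 to -0.16. SR protein genes were 3 higher and 8 lower of 12, with a median log2 fold change of -1.39. Here too, the call of SRSF12, 1 of the 3 higher, was set in part by the filter, and SRSF12 enters the median. SRSF10 was -2.79 ± 0.13, SRSF11 -1.98 ± 0.14, SRSF2 -1.92 ± 0.12, SRSF3 -1.82 ± 0.13, SRSF8 -1.61 ± 0.13, SRSF6 -1.58 ± 0.12 and SRSF1 -1.20 ± 0.09. SRSF9 was higher (1.60 ± 0.14), at 123, 119.6 and 124 normalised CPM in the NVR-labelled libraries against 34.9, 45.4 and 40.2, as were SRSF5 (0.77 ± 0.11) and SRSF12, at least 8.38-fold over the floor.

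For hnRNP genes the same comparison gave 7 higher and 8 lower of 22, with a median of -0.03. HNRNPR (-1.81 ± 0.12), HNRNPF (-1.28 ± 0.12), HNRNPLL (-1.24 ± 0.13), HNRNPU (-1.05 ± 0.12) and HNRNPH2 (-1.04 ± 0.11) were more than 2-fold lower. HNRNPLL had 27.3, 33.5 and 22.7 and HNRNPH2 40.9, 43.95 and 33.5 normalised CPM in the NVR-labelled libraries. HNRNPUL2 (1.29 ± 0.13) and HNRNPA0 (1.11 ± 0.12) were more than 2-fold higher, with 53.3, 46.4 and 54.8 and 318, 312 and 314 normalised CPM. HNRNPA1L2 was higher by 1.01 ± 0.26, at 6.75, 5.74 and 6.91 against 2.06, 3.21 and 4.28, with 5.97, 5.83 and 4.72 in OV-CTRL (adjusted p = 0.00176, and 0.0121 without OV-L1-FGGY replicate 1). HNRNPA1 (0.41 ± 0.13, adjusted p = 0.00855) lost its call without any OV-L1-FGGY library or without NVR replicate 1 or 2 (0.0119 to 0.0398), and HNRNPC (0.36 ± 0.11) without any 1 of these libraries but NVR replicate 2 (0.0229 to 0.0357). With library size alone as the scaling, HNRNPA1 was at 0.17 (edgeR adjusted p = 0.198) and HNRNPC at 0.11 (0.300). The calls of HNRNPD (0.18, adjusted p = 0.137) and HNRNPA1L2 (0.76, 0.0137) were lost with that scaling too.

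The partners of the members were read from lists of kinases and import receptors, SR-related proteins, hnRNPs with other symbols, spliceosome factors, tissue regulators and decay factors. Over all genes, 21.3% were called higher and 23.5% lower after ML355, and 14.5% and 15.3% in the NVR-labelled libraries against OV-CTRL, with a median log2 fold change of 0.00 in both. After ML355, 12 of 24 genes for U1 and U2 snRNP proteins and 3′ splice site factors were higher and 1 was lower, with a median log2 fold change of 0.45. Among the higher ones were SNRPA of U1 (1.66 ± 0.20, adjusted p = 2.97e-06) and SF3A1 and SF3B2 of U2 (0.93 ± 0.11 and 0.89 ± 0.10). In NVR-labelled libraries against OV-CTRL the same list had 1 higher and 6 lower, with a median of -0.24 and the U2 protein SF3B3 at -0.79 ± 0.09. SR-related proteins were 7 higher and 2 lower of 18 after ML355 and 1 higher and 9 lower in the other comparison. TRA2B, a splicing activator with arginine-serine domains at both ends, was lower in both (-0.98 ± 0.12 and -1.30 ± 0.12), while SRRM1 rose after ML355 (1.24 ± 0.13). The nonsense-mediated decay list was 7 higher and 2 lower of 15 after ML355 and 0 higher and 8 lower in the NVR-labelled libraries. UPF3B, which links exon junction complexes to decay, stood at 0.93 ± 0.14 and -1.06 ± 0.14.

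Of the 12 kinases and import receptors of SR proteins, 3 were higher and 1 was lower after ML355, and 0 and 6 in the NVR-labelled libraries. CLK3, a nuclear kinase of the arginine-serine tail, rose from 28.1 to 132 normalised CPM after ML355 (2.23 ± 0.12, adjusted p = 7.82e-10), and the import receptor TNPO3 by 0.66 ± 0.11. SRPK1, the cytoplasmic kinase that primes SR proteins for import, was lower in both (-0.58 ± 0.11 and -0.54 ± 0.11). In OV-L1-FGGY against OV-CTRL, where 32.5% of all genes were called higher and 36.2% lower, this list had 7 higher and 4 lower, with SRPK1, PRPF4B and CLK1 at 1.62 ± 0.11, 1.51 ± 0.11 and 1.42 ± 0.10. The hnRNPs with other symbols and the FET proteins were 2 higher and 6 lower of 14 tested after ML355 and 1 higher and 9 lower in the NVR-labelled libraries, and RBMX (-1.32 ± 0.10 and -0.67 ± 0.10), DHX9 (-1.25 ± 0.11 and -1.10 ± 0.11) and SYNCRIP (-1.10 ± 0.12 and -1.09 ± 0.12) were lower in both. Tissue splicing regulators gave 2 higher and 4 lower of 12 tested after ML355 and 1 higher and 2 lower in the NVR-labelled libraries. All 12 of them differed between OV-L1-FGGY and OV-CTRL, 8 higher and 4 lower, in a comparison where 68.7% of all genes were called. Several passed the filter on low counts only through the libraries where they were high, so this count was set in part by the filter. Means in OV-L1-FGGY and OV-CTRL were 44.6 and 0.262 normalised CPM for the epithelial regulator ESRP2, 41.4 and 0 for MBNL3, and 0.147 and 24.1 for RBFOX3.

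**Figure D5:**
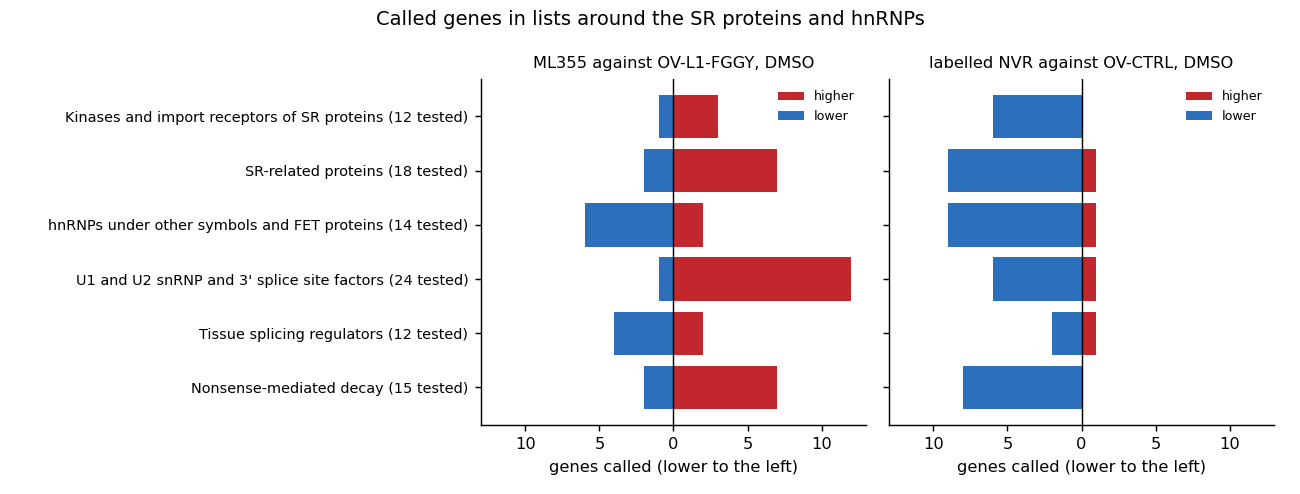
Numbers of genes called higher (red, right) and lower (blue, left) at an adjusted p under 0.01 in 6 lists around the members, for ML355 against OV-L1-FGGY and for NVR-labelled libraries against OV-CTRL. Of the genes called in the snRNP, SR-related and decay lists (24, 18 and 15 tested), most were higher on the left (12, 7 and 7, with 1, 2 and 2 lower). On the right most were lower (6, 9 and 8, with 1, 1 and 0 higher). Over all genes, 21.3% were called higher and 23.5% lower on the left, and 14.5% and 15.3% on the right.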

How the data were processed

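Bulk RNA of the 12 libraries was prepared from Trizol extracts with an Illumina TruSeq kit per the labels (the methods name NEB). Alignment by the authors used STAR 2.5.3a on hg38, with HTSeq 0.11.2 for reads per gene, and the deposited values are whole-number counts without normalization. The annotation and the counting mode are not given in the sources used here. Of 58302 gene identifiers, 57532 matched GENCODE 44, which gave symbols, positions and exons. Of 36072 genes with a count, edgeR's filterByExpr kept 17849.

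Counts were tested with edgeR 4.0.16 in R 4.3.3 (TMM scaling, robust quasi-likelihood fit of 4 group means, Benjamini-Hochberg over all genes, called at an adjusted p under 0.01, the threshold of the study's methods). The common biological coefficient of variation was 0.143. The test was tried on simulated data. Groups came from the sample titles, and the header names of the control and NVR columns, which carry no cell line, were matched to them by treatment. The members and lists were chosen with earlier results of these data known. Values per library were given for members called with at least a 2-fold change in any group comparison and for the 3 per class with the highest level per length. From each list up to 3 genes with the smallest adjusted p in a comparison were named, and others were chosen after their values were seen. Alternatives were DESeq2 1.42.0, limma 3.58.1 voom, other scalings and filters, a replicate block, other thresholds and leaving out each library. Promoters were read from RefSeq.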

Additional observations from a re-analysis of the deposited data

Results flagged for a closer look

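The effect of ML355 (against OV-L1-FGGY) and that of the libraries labelled NVR (against OV-CTRL) differed by the edgeR test of the difference itself in 16 members. On the log2 scale the difference was positive for SRSF1 (0.477), SRSF4 (1.24), HNRNPA2B1 (0.545), HNRNPA3 (0.762), HNRNPAB (0.871), HNRNPC (0.76), HNRNPD (1.07), HNRNPDL (1.70), HNRNPF (0.836), HNRNPH1 (0.809), HNRNPK (0.799), HNRNPL (1.90), HNRNPLL (0.665), HNRNPR (1.55) and HNRNPU (0.948), and negative for HNRNPM (-1.52). Of 12 fits that each left out a library, the call was lost in 9 for SRSF1 (adjusted p = 0.0121 to 0.0261), in 11 for HNRNPA2B1 (0.0102 to 0.0294) and in 9 for HNRNPLL (0.0108 to 0.0269). Groups of 3 libraries were not searched for outliers.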

How the results depend on the processing

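Counts of members called, in the order ML355 against OV-L1-FGGY, NVR against OV-CTRL, OV-L1-FGGY against OV-CTRL, NVR against OV-L1-FGGY and the difference of effects, are given for each alternative. A required change of at least 2-fold left 2, 5, 12, 17 and 6 called, beside 25.7%, 13.1%, 51.1%, 57.6% and 24.4% of all genes. Leaving out each library in turn gave 10 to 13, 20 to 25, 20 to 21, 22 to 25 and 13 to 16. Over all genes these fits called 6852 to 7578, 3506 to 6106, 11438 to 11776, 12454 to 13142 and 5099 to 6432. With DESeq2 the counts were 15, 24, 25, 29 and 17, beside 8674, 6308, 12582, 13403 and 6885 of the 17849 genes tested. With library size alone they were 12, 24, 21, 25 and 13, beside 7583, 5033, 12014, 13008 and 5535 of all genes. Same-numbered replicates did not deviate together (correlations from -0.35 to 0.17 over genes), so the numbers were not taken to pair them. The replicate block gave 11, 22, 22, 25 and 13 called, beside 7583, 4754, 11979, 12874 and 5649 of all genes. For the 101 calls of members, 1593 alternative values gave 1462 on the same side of the threshold and 131 short of it, and none turned its sign. Members not called in the main fit are not among these values, and some of them were called under an alternative, such as SRSF1, HNRNPA1 and HNRNPD after ML355 with DESeq2. With the replicate block the lost calls were HNRNPUL1 after ML355 (adjusted p = 0.0163), HNRNPLL (0.0115) and SRSF4 (0.0143) in NVR against OV-CTRL, HNRNPF in OV-L1-FGGY against OV-CTRL (0.0125), HNRNPC in NVR against OV-L1-FGGY (0.01002) and the differences of HNRNPA2B1 (0.0175), HNRNPLL (0.0128) and SRSF1 (0.0111). With library size alone SRSF5 lost its call in OV-L1-FGGY against OV-CTRL (0.0785), as in both inhibitor comparisons. The cause was not tested. Depth limits SRSF12, HNRNPA1L2 and the HNRNPCL genes.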

Other observations

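Pseudogenes of any kind with a symbol that starts HNRNP or SRSF and ends in P and digits form 134 rows of the count table beside the members. Together they took 207 to 521 counts in a library, which is 0.137% to 0.277% of the members' counts, and 14 of them passed the filter on low counts. HNRNPA1P33, a pseudogene of HNRNPA1, had 10, 15 and 28 counts in OV-L1-FGGY and 1, 2 and 3 after ML355 (log2 fold change -3.12 ± 0.55 SE, edgeR adjusted p = 0.000155), with 21, 22 and 12 in the libraries labelled NVR and 44, 49 and 39 in OV-CTRL. HNRNPA3P9 went the other way, with 0, 6 and 3 counts in OV-L1-FGGY and 15, 31 and 11 after ML355 (2.57 ± 0.74, adjusted p = 0.00775). HNRNPCP2 had 29, 13 and 28 counts in OV-L1-FGGY against 121, 88 and 107 in OV-CTRL (-1.75 ± 0.36, adjusted p = 0.000325). These were chosen after their values were seen, and reads shared with the parent genes may be split between parent and copy, which was not tested.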
